A study of Mus musculus with 3 samples.

Results

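The genes described here are 36 genes that run mitosis (the division of the duplicated chromosomes) and cytokinesis (the splitting of the cell). They were chosen by gene symbol for what their products do, with no measured value in the rule, though with earlier results of these data known. Each of the 36 was found among the 17796 genes of the expression table. All 36 also had a mean of at least 1 CPM (a gene's reads per 1000000 reads of its library), the level used below for the comparison with other genes. They hold cyclins and their kinase, checkpoint and other mitotic kinases, kinetochore proteins, kinesin motors, spindle and cytokinesis proteins, regulators of anaphase, and the chromosome proteins Top2a and Mki67.

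Mitosis begins when Cdk1, bound to a cyclin, phosphorylates proteins that condense the chromosomes and build the spindle. Kinetochores then fix each chromosome to spindle microtubules, and the spindle checkpoint holds the anaphase promoting complex (APC/C) inactive until every kinetochore is attached. Once released, the APC/C marks securin and B-type cyclins for destruction, separase cuts the cohesin that joins sister chromatids, and a contractile ring splits the cell. T cells that meet an activating signal leave quiescence and divide rapidly, so transcripts of these genes are abundant in activated cultures.

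The study asked how fumarate given to old mice bears on their activated T cells. RNA was sequenced from T cells of the spleen of C57BL/6 mice, and each of the 3 groups has 1 library. The first is from mice of 24 months given fumarate at 10 mg/kg, 3 doses a week over 2 months (aged fumarate). The second is from mice of the same age given vehicle on that course (aged vehicle), and the last from mice of 2 months labelled vehicle with no stated course (young). Cells of all groups were activated in culture for 3 days with antibodies to CD3 at 2 ug/ml and to CD28 at 5 ug/ml, with interleukin 2 at 100 IU/ml. The labels do not say whether cells of several mice were pooled, nor whether 24 months is the age at the start or the end of treatment. With 1 library a group, no comparison has a replicate check and none is tested. The 95% intervals given below cover the counting error of the estimated reads alone, not the variation between mice or cultures.

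The estimated depth was 13.9 M reads in the aged fumarate library, 17.3 M in the aged vehicle library and 41.0 M in the young library, so the members rest on 313 to 26853 estimated reads each. All 20 genes of a T cell identity list were detected in every library, with summed levels of 6208 CPM in aged fumarate cells, 5263 CPM in aged vehicle cells and 5824 CPM in young cells. The aged vehicle library stood apart in markers of other cells. Summed erythroid and platelet markers were at 178 CPM in aged fumarate cells, 1389 CPM in aged vehicle cells and 14.0 CPM in young cells. Summed basophil and mast cell markers were at 81.7, 453 and 5.42 CPM in the aged fumarate, aged vehicle and young cells, and all 9 measured were at least 1.5-fold higher in aged vehicle than in young cells. B cell markers summed to 73.7, 232 and 143 CPM in aged fumarate, aged vehicle and young cells, NK cell markers to 115, 95.5 and 35.3 CPM, and macrophage and monocyte markers to 5.77, 33.9 and 3.05 CPM. The B and NK cell sums did not speak for their single genes. Of 6 B cell markers with a mean of at least 1 CPM, 3 were higher and 3 lower in aged fumarate than in aged vehicle cells. Against young cells 4 were higher and 2 lower in aged fumarate cells. Of 6 such NK cell markers, 3 were higher and 3 lower in aged fumarate than in aged vehicle cells. Among the macrophage markers Adgre1 and C1qb were at 0 in aged fumarate cells, and C1qb and Fcgr1 at 0 in young cells. Klra8, an NK cell receptor, was at 0 in aged fumarate cells. In such bulk samples, fewer dividing T cells and less RNA of a gene per cell cannot be told apart.

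Promoter sequences were read first, since many mitotic genes are known to share a pair of elements. The cell cycle genes homology region (CHR) is bound by MuvB complexes that hold these genes silent in quiescent cells and switch them on late in the cycle, and CCAAT boxes are bound by NF-Y. RefSeq promoters (build GRCm38.p6), from 250 bases before to 50 bases after the start of the transcript, were matched for 31 of the 36 members. Aurkb, Kif20a, Incenp, Ccna2 and Tpx2 had no match. The CHR core was searched as TTTGAA or TTCGAA and the CCAAT box as CCAAT, both on either strand. The CHR core lay in 25 of the 31 promoters (80.6%), against 21.7% of the 27025 genes of the whole promoter table and 16.8% of those with a mean of at least 1 CPM here. CCAAT lay in 24 of 31 (77.4%), against 41.1% of all promoters, and both lay together in 22 of 31 (71.0%), against 8.61% of all. CHR and CCAAT matches did not overlap in any member. In 37 S phase genes, whose products copy the DNA before mitosis, the CHR core was found in 21.6% and CCAAT in 59.5%. A CHR core fell within 50 bases of the start in 23 members. Birc5, Nuf2, Nusap1 and Pttg1 had neither sequence in the window.

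The 120 bases before the start are shown for 6 members, with CHR cores and CCAAT boxes in capitals as they read on the gene's own strand, so that ATTGG is a CCAAT box and TTCAAA a CHR core of the opposite strand. Cdk1 (chr10:69352913-69353032, minus strand) and Top2a (chr11:99024190-99024309, minus strand) stand for the common arrangement, with several CCAAT boxes upstream of a CHR core close to the start. Cdc20 (chr4:118437344-118437463, minus strand) had the highest level per length, and Espl1 (chr15:102296173-102296292, plus strand) the largest positive ratio of aged fumarate over aged vehicle. Ckap2l (chr2:129297213-129297332, minus strand) and Prc1 (chr7:80294356-80294475, plus strand, the second of 2 listed starts) departed from the other members in level.
Cdk1: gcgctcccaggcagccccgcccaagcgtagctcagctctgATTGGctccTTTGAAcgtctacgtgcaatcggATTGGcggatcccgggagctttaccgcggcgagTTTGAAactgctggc
Top2a: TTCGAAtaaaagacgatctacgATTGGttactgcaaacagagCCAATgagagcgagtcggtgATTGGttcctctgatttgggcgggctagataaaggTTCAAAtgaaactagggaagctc
Cdc20: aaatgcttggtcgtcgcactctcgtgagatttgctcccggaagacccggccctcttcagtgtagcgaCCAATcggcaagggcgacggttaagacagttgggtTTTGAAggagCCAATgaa
Espl1: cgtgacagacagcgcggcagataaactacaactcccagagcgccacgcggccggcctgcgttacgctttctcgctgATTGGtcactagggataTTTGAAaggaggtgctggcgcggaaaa
Ckap2l: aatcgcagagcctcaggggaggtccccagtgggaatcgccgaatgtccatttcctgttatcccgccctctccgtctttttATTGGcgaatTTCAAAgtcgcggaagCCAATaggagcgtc
Prc1: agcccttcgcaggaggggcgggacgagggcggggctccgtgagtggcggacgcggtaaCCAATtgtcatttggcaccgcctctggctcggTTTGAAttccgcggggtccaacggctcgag
The arrangement of Ckap2l, a CHR core between 2 CCAAT boxes near the start, uses the same letters as in the promoters of members whose values ran the other way, and a match is a description of the sequence alone.

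**Figure D1:**
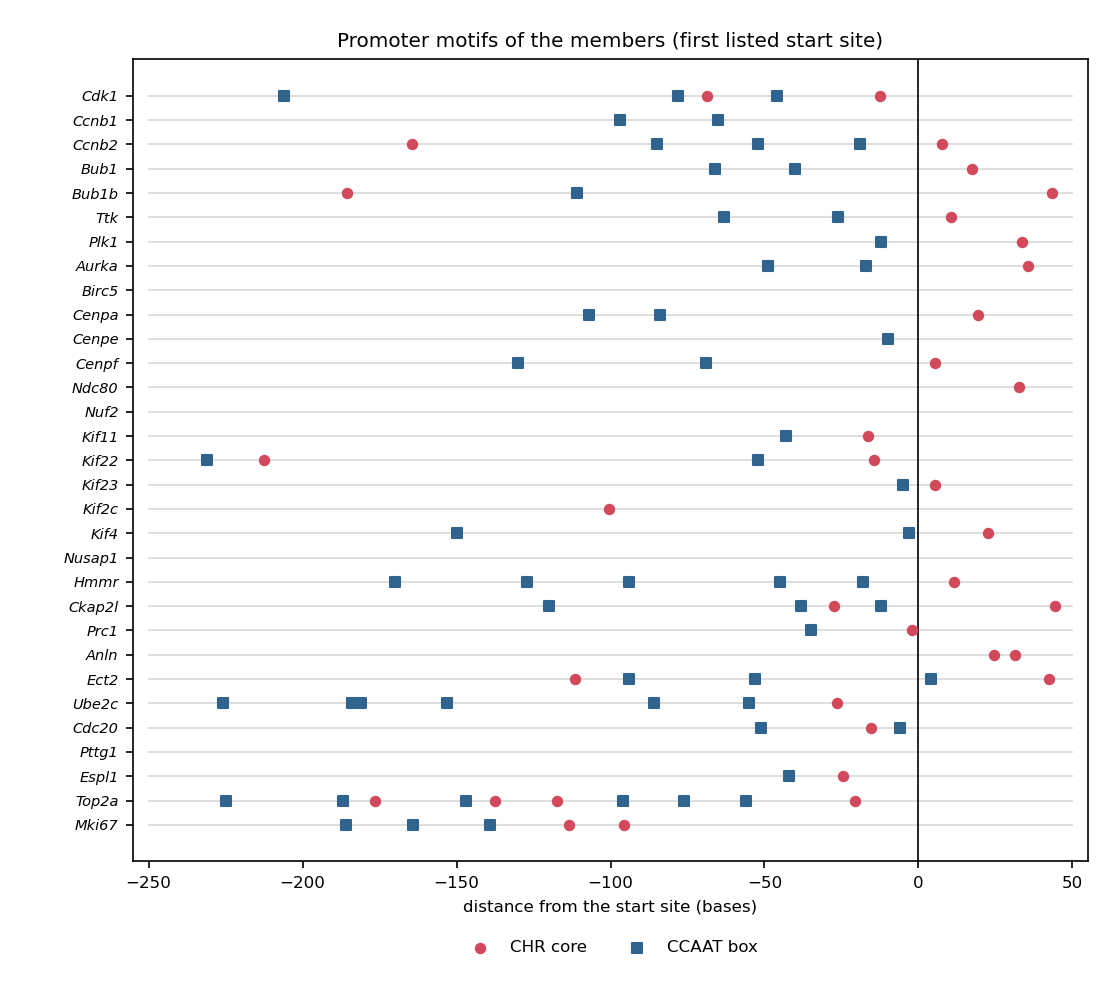
Positions of CHR cores (red circles) and CCAAT boxes (blue squares) in the promoters of the 31 matched members, one row a gene, against the distance from the first listed start of transcription in bases. In 23 members a CHR core lies within 50 bases of the start, and the rows of Birc5, Nuf2, Nusap1 and Pttg1 hold no mark.

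With plain CPM, most of these genes were a little lower in T cells of old vehicle mice than in those of young mice, by less than 1.5-fold, and the size of the difference depended on how the libraries were scaled. Their CPM summed to 3927 in aged vehicle cells and 4946 in young cells, or 0.393% of all CPM in aged vehicle cells against 0.495% in young cells. Of the 36 members, 33 were lower in aged vehicle than in young cells, where 46.2% of the 13750 genes with a mean of at least 1 CPM were lower. The median log2 ratio, computed on CPM + 1, was -0.32 (1.25-fold), and the middle members ran from -0.43 (lower quartile) to -0.20 (upper quartile), against a median of 0.033 over all genes. At least 1.5-fold lower were 5 members, Ndc80, Bub1, Cenpf, Nusap1 and Aurkb, or 13.9% of the members beside 6.73% of all genes. At least 1.5-fold higher was 1 member, Ckap2l (2.78%, beside 16.5% of all genes). With libraries scaled to T cell identity genes, 24 members were lower in aged vehicle than in young cells and the median was -0.089. On that scale 0 members were at least 1.5-fold lower, beside 3.62% of all genes. The counting interval of the plain CPM ratio lay wholly on 1 side of no difference for 34 members, all but Kif23 and Ttk.

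In aged mice given fumarate the same genes were for the most part slightly above their aged vehicle level with plain CPM. With libraries scaled to T cell identity genes that excess was absent from their median. Their CPM summed to 4417 in aged fumarate cells (0.442% of all CPM), against 3927 in aged vehicle cells. With plain CPM, 32 of 36 members were above their aged vehicle level, where 45.8% of all genes were above, and the median log2 ratio was 0.17 (1.13-fold) against -0.025 over all genes. With libraries scaled to T cell identity genes, that median was -0.00011, and the median of all genes moved by -0.16. No member was at least 1.5-fold higher with plain CPM (2.15% of all genes were). On that plain CPM scale 1, Ckap2l, was at least 1.5-fold lower (2.78% of members, beside 11.2% of all genes). The interval of the plain CPM ratio excluded no difference for 26 members. The comparisons of aged fumarate with aged vehicle and of aged vehicle with young share the aged vehicle library, so the values of both are given side by side with nothing read from their opposite signs.

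Against young cells, the aged fumarate cells had 29 of 36 members lower, where 49.2% of all genes were lower. The median log2 ratio was -0.13 (1.10-fold), against 0.0048 over all genes. Bub1 alone was at least 1.5-fold lower (2.78% of members, beside 6.79% of all genes), and no member was at least 1.5-fold higher (10.5% of all genes were). The interval included no difference for 11 members, among them Ccnb1, Plk1, Aurka, Birc5 and Espl1.

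**Figure D2:**
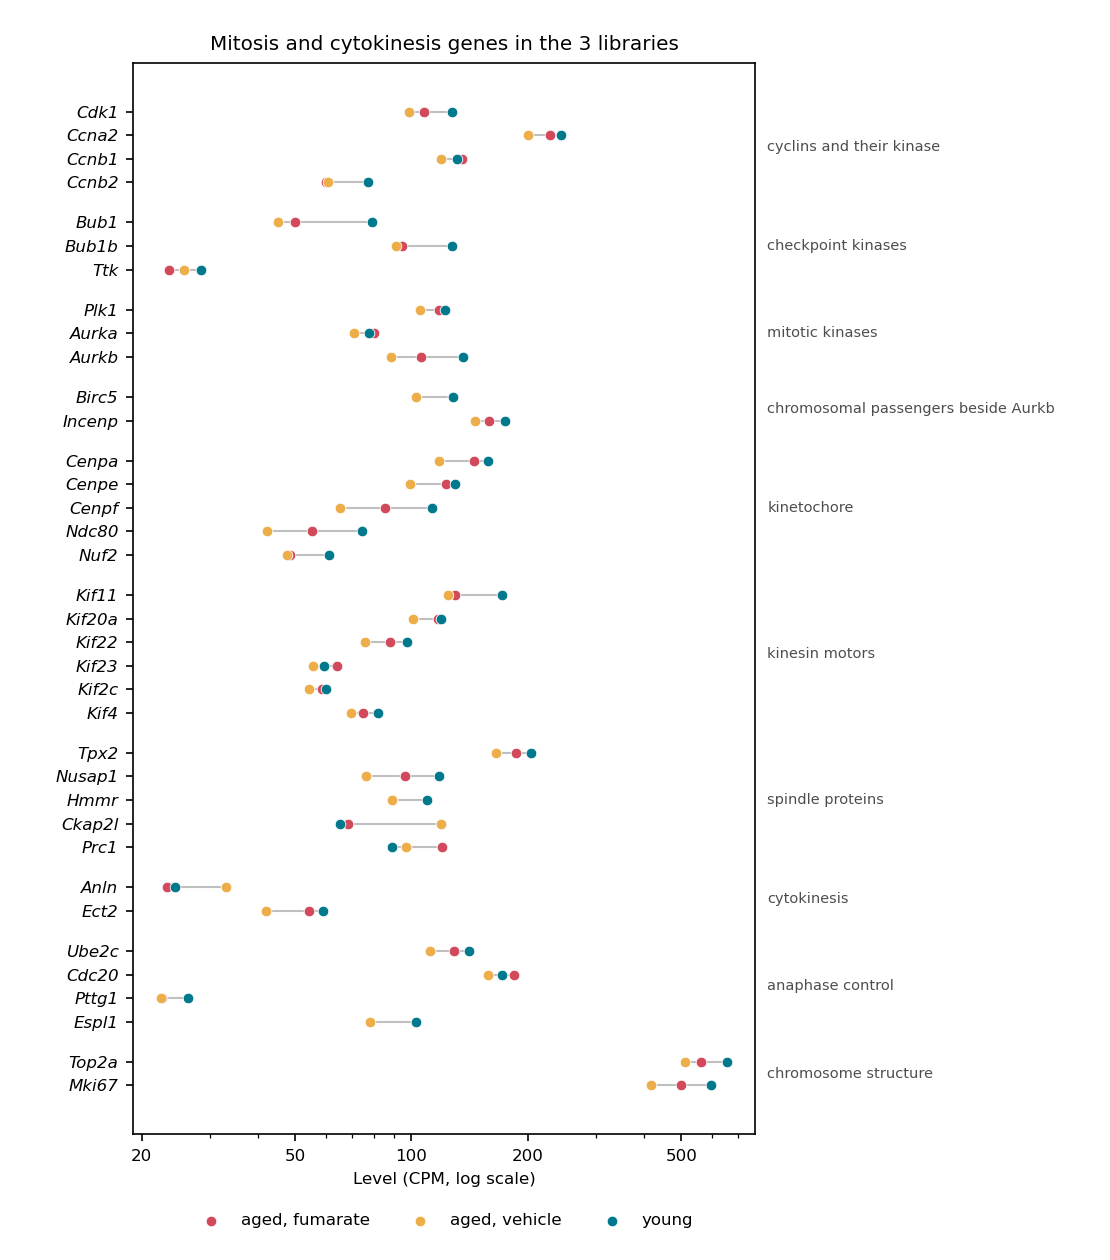
Level of each member in CPM on a log scale, by role, in the aged fumarate (red), aged vehicle (orange) and young (teal) libraries, each point 1 library with no replicates. Young points lie to the right of aged vehicle points for 33 of 36 members, and Ckap2l, Anln and Prc1 are the exceptions. Points that coincide, as for Birc5 and Espl1 in aged fumarate and young cells, hide each other.

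Among the cyclins and their kinase, Cdk1 (chr10:69335146-69352938, minus strand, positions of mm10 as the table gives them), the kinase that starts mitosis, was at 108 CPM in aged fumarate cells, 98.6 CPM in aged vehicle cells and 127 CPM in young cells. Ccna2 (cyclin A2), which acts in S phase and at mitotic entry, was at 229, 200 and 244 CPM in aged fumarate, aged vehicle and young cells. Both were highest in young and lowest in aged vehicle cells, with log2 ratios of aged vehicle over young of -0.36 for Cdk1 (interval -0.45 to -0.29) and -0.29 for Ccna2 (-0.34 to -0.23). The B-type cyclins, which take Cdk1 through mitosis, parted from each other. Ccnb1 was at 135 CPM in aged fumarate cells, 119 CPM in aged vehicle cells and 131 CPM in young cells, so that the aged fumarate and young levels differed by less than the counting error (0.040, -0.036 to 0.12). Ccnb2 was at 60.1 CPM in aged fumarate cells, 60.6 CPM in aged vehicle cells and 77.3 CPM in young cells, level between the aged libraries (-0.014, -0.15 to 0.12) and lower in aged fumarate than in young cells (-0.36, -0.48 to -0.25).

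The checkpoint kinases held the member with the lowest ratio of aged fumarate over young. Bub1 (chr2:127801122-127831865, minus strand), which recruits checkpoint proteins to kinetochores, was at 49.8 CPM in aged fumarate cells, 45.1 CPM in aged vehicle cells and 78.9 CPM in young cells. Its log2 ratio was -0.79 for aged vehicle over young (-0.92 to -0.69) and -0.65 for aged fumarate over young (-0.78 to -0.54), and the difference between the aged libraries was within the counting error (0.14, -0.0074 to 0.29). Bub1b (BubR1), part of the complex that inhibits the APC/C, was at 94.7, 90.9 and 127 CPM in aged fumarate, aged vehicle and young cells. Like Bub1, it was lower in both aged libraries than in the young one, and its ratio of aged fumarate over aged vehicle was 0.058 (-0.048 to 0.17). Ttk (Mps1), the kinase at the head of the checkpoint, was at 23.5, 25.7 and 28.5 CPM in aged fumarate, aged vehicle and young cells. Ttk was lowest in aged fumarate cells, and only its ratio of aged fumarate over young had an interval clear of 0 (-0.27, -0.46 to -0.099).

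Of the other mitotic kinases, Plk1, which acts from centrosome maturation to cytokinesis, was at 118 CPM in aged fumarate cells, 105 CPM in aged vehicle cells and 122 CPM in young cells. The aurora kinases differed from each other between aged vehicle and young cells. Aurka, which builds the spindle poles, was at 80.0 CPM in aged fumarate cells, 71.0 CPM in aged vehicle cells and 77.6 CPM in young cells, a log2 ratio of aged vehicle over young of -0.13 (-0.22 to -0.032). Aurkb (chr11:69045647-69051664, plus strand), the kinase of the chromosomal passenger complex, which corrects faulty kinetochore attachments, was at 106 CPM in aged fumarate cells, 88.6 CPM in aged vehicle cells and 136 CPM in young cells. Its ratio of aged vehicle over young was -0.61 (-0.70 to -0.53), and the intervals of Aurkb and Aurka did not overlap. Its partners in the complex, Birc5 (survivin) and Incenp (the scaffold that activates Aurkb), had ratios of aged vehicle over young of -0.32 and -0.26. Birc5 was at 128 CPM in aged fumarate cells, 103 CPM in aged vehicle cells and 128 CPM in young cells. Incenp was at 159, 146 and 175 CPM in aged fumarate, aged vehicle and young cells, between the other libraries with fumarate where Birc5 stood level with the young library (-0.0088, -0.087 to 0.069).

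Of the 5 kinetochore genes, Ndc80 and Cenpf were at least 1.5-fold lower in aged vehicle than in young cells with plain CPM, as were 6.73% of all genes, and neither was with libraries scaled to T cell identity genes (-0.57 and -0.55). Ndc80 (chr17:71496100-71526857, minus strand), the microtubule-binding arm of the outer kinetochore, was at 55.4 CPM in aged fumarate cells, 42.3 CPM in aged vehicle cells and 74.3 CPM in young cells. Cenpf (chr1:189640606-189688086, minus strand), a large outer kinetochore protein, was at 85.5, 65.3 and 113 CPM in aged fumarate, aged vehicle and young cells. The ratios of aged vehicle over young were -0.80 for Ndc80 (-0.93 to -0.69) and -0.78 for Cenpf (-0.89 to -0.70). Both were higher in aged fumarate than in aged vehicle cells by 0.38 on the log2 scale (0.24 to 0.54 for Ndc80, 0.27 to 0.51 for Cenpf) and lower than in young cells by -0.42 and -0.40. Nuf2, which forms a coiled-coil dimer with the Ndc80 protein, was at 48.3 CPM in aged fumarate cells, 47.5 CPM in aged vehicle cells and 61.1 CPM in young cells. Its ratio of aged vehicle over young was -0.36 (-0.48 to -0.25) and that of aged fumarate over aged vehicle 0.023 (-0.13 to 0.17), and the intervals of these partners did not overlap in either comparison. Cenpa, the histone H3 variant that marks centromeres, was at 145, 118 and 158 CPM in aged fumarate, aged vehicle and young cells. Cenpe, a kinesin that moves chromosomes to the spindle equator, was at 123, 99.2 and 130 CPM in aged fumarate, aged vehicle and young cells. For both, the aged fumarate level lay nearer to the young than to the aged vehicle level, with ratios of aged fumarate over aged vehicle of 0.29 for Cenpa (0.20 to 0.38) and 0.31 for Cenpe (0.22 to 0.41).

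All 6 kinesin motors were lower in aged vehicle than in young cells with plain CPM, and for Kif23, Kif2c and Kif4 that sign turned when libraries were scaled to T cell identity genes. Kif11 (Eg5), which pushes the spindle poles apart, was at 130 CPM in aged fumarate cells, 124 CPM in aged vehicle cells and 172 CPM in young cells. It was low in both aged libraries, with ratios of -0.48 (-0.55 to -0.41) for aged vehicle over young and -0.41 (-0.49 to -0.34) for aged fumarate over young. Kif23, the motor of centralspindlin, was at 64.0, 55.5 and 59.5 CPM in aged fumarate, aged vehicle and young cells, and Kif20a, which carries the passenger complex to the central spindle, at 117, 101 and 119 CPM. For these central spindle motors the aged fumarate and young levels could not be separated at this depth (0.10, -0.0079 to 0.22, for Kif23 and -0.021, -0.10 to 0.059, for Kif20a). Kif22, a motor that sits on chromosome arms, was at 88.1, 75.9 and 97.2 CPM in aged fumarate, aged vehicle and young cells, and Kif4, another chromosome-bound kinesin, at 74.7, 69.9 and 81.8 CPM. Kif2c (MCAK), which takes microtubules apart at centromeres, was at 58.8, 54.4 and 60.2 CPM in aged fumarate, aged vehicle and young cells. The ranges of the 3 levels were narrow for Kif2c and Kif4, whose ratios of aged fumarate over aged vehicle had intervals that included 0.

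The 5 spindle proteins differed among themselves. Tpx2, which activates Aurka on microtubules, was at 186 CPM in aged fumarate cells, 166 CPM in aged vehicle cells and 204 CPM in young cells. Nusap1 (chr2:119618298-119651244, plus strand), which bundles spindle microtubules, was at 96.2, 76.2 and 118 CPM in aged fumarate, aged vehicle and young cells, with a ratio of aged vehicle over young of -0.62 (-0.72 to -0.54). Nusap1 overlaps the neighbouring gene Oip5 at its start, and Oip5, which loads Cenpa at centromeres, had the like ratio of -0.70 at a lower level, 15.9 CPM in aged vehicle cells against 26.4 CPM in young cells. Hmmr, a spindle-pole protein and hyaluronan receptor, was at 89.1 CPM in aged fumarate cells, 88.9 CPM in aged vehicle cells and 110 CPM in young cells. Hmmr was level between the aged libraries, whose ratio of 0.0035 ran from -0.11 to 0.11.

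Prc1 (chr7:80294450-80316259, plus strand), which crosslinks the overlapping microtubules of the central spindle, had another order of levels. It was at 120 CPM in aged fumarate cells, 97.0 CPM in aged vehicle cells and 88.8 CPM in young cells. Its ratio of aged fumarate over young, 0.43 (0.35 to 0.52), was the highest of the 36, and that of aged vehicle over young was 0.13 (0.043 to 0.21). Prc1 lies within the span of Rccd1 on the other strand, which was at 9.99, 10.9 and 11.9 CPM in aged fumarate, aged vehicle and young cells, an order opposite to that of Prc1. Without strand information in the sources used here, reads of overlapping genes cannot be told apart.

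Ckap2l (chr2:129268210-129297212, minus strand), a protein of spindle poles and microtubules, was the member farthest from the rest. It was at 68.6 CPM in aged fumarate cells, 119 CPM in aged vehicle cells and 65.2 CPM in young cells. Aged vehicle was the high library, and the aged fumarate and young levels could not be separated at this depth (0.073, -0.034 to 0.18). The log2 ratios were 0.86 (0.78 to 0.95) for aged vehicle over young and -0.79 (-0.91 to -0.68) for aged fumarate over aged vehicle. The next gene upstream on the same strand, 2.4 kb from its start, is Il1a (chr2:129299610-129309972), which encodes the cytokine interleukin 1 alpha. Il1a was at 5.56 CPM in aged fumarate cells, 22.6 CPM in aged vehicle cells and 0.781 CPM in young cells, and so was highest in the same library. The summed erythroid, platelet, basophil, mast cell, macrophage and monocyte markers given above were also highest in the aged vehicle library, as was the B cell sum. The part of Il1a or of these markers in the Ckap2l values was not tested.

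Of the cytokinesis genes, Anln (anillin, the scaffold of the contractile ring; chr9:22332012-22389188, minus strand) was at 23.3 CPM in aged fumarate cells, 33.0 CPM in aged vehicle cells and 24.4 CPM in young cells. Like Ckap2l, it was highest in the aged vehicle library, by 0.42 over young (0.28 to 0.58), and the aged fumarate ratio was -0.48 over aged vehicle (-0.70 to -0.30) and -0.066 over young (-0.25 to 0.11). Ect2, the exchange factor that activates RhoA at the cell equator, ran the other way. It was at 54.1 CPM in aged fumarate cells, 42.0 CPM in aged vehicle cells and 59.0 CPM in young cells, with a ratio of aged vehicle over young of -0.48 (-0.61 to -0.37). Ect2 and Anln act together at the division furrow, and their intervals did not overlap in the comparison of aged vehicle with young or of aged fumarate with aged vehicle (0.36, 0.22 to 0.51, for Ect2).

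Among the regulators of anaphase, Ube2c, the enzyme that passes ubiquitin to targets of the APC/C, was at 129 CPM in aged fumarate cells, 112 CPM in aged vehicle cells and 141 CPM in young cells. Cdc20 (chr4:118432901-118437352, minus strand), the activator of the APC/C that the checkpoint holds back, was at 184, 158 and 172 CPM in aged fumarate, aged vehicle and young cells. Cdc20 was highest in aged fumarate cells, by 0.094 over young (0.029 to 0.16) and 0.22 over aged vehicle (0.14 to 0.30). Pttg1 (securin), the inhibitor of separase, was at 22.6 CPM in aged fumarate cells, 22.5 CPM in aged vehicle cells and 26.3 CPM in young cells. Espl1 (separase; chr15:102296266-102324357, plus strand), the protease that cuts cohesin, was at 103 CPM in aged fumarate cells, 78.1 CPM in aged vehicle cells and 103 CPM in young cells. Espl1 had the highest ratio of aged fumarate over aged vehicle among the 36, 0.40 (0.29 to 0.51), and no detectable difference between aged fumarate and young cells (0.00093, -0.087 to 0.088). Its inhibitor Pttg1 was level between the aged libraries (0.0038, -0.22 to 0.22).

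The most abundant members by CPM were the chromosome proteins. Top2a (topoisomerase II alpha), which untangles sister DNA, was at 562 CPM in aged fumarate cells, 510 CPM in aged vehicle cells and 655 CPM in young cells. Mki67 (Ki-67), the coat of mitotic chromosomes and a common marker of dividing cells, was at 498, 417 and 598 CPM in aged fumarate, aged vehicle and young cells. Both had young highest and aged vehicle lowest. Their large read numbers gave narrow intervals, -0.36 (-0.40 to -0.33) for Top2a and -0.52 (-0.56 to -0.48) for Mki67 in aged vehicle over young, and 0.14 (0.096 to 0.18) and 0.26 (0.21 to 0.30) in aged fumarate over aged vehicle.

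**Figure D3:**
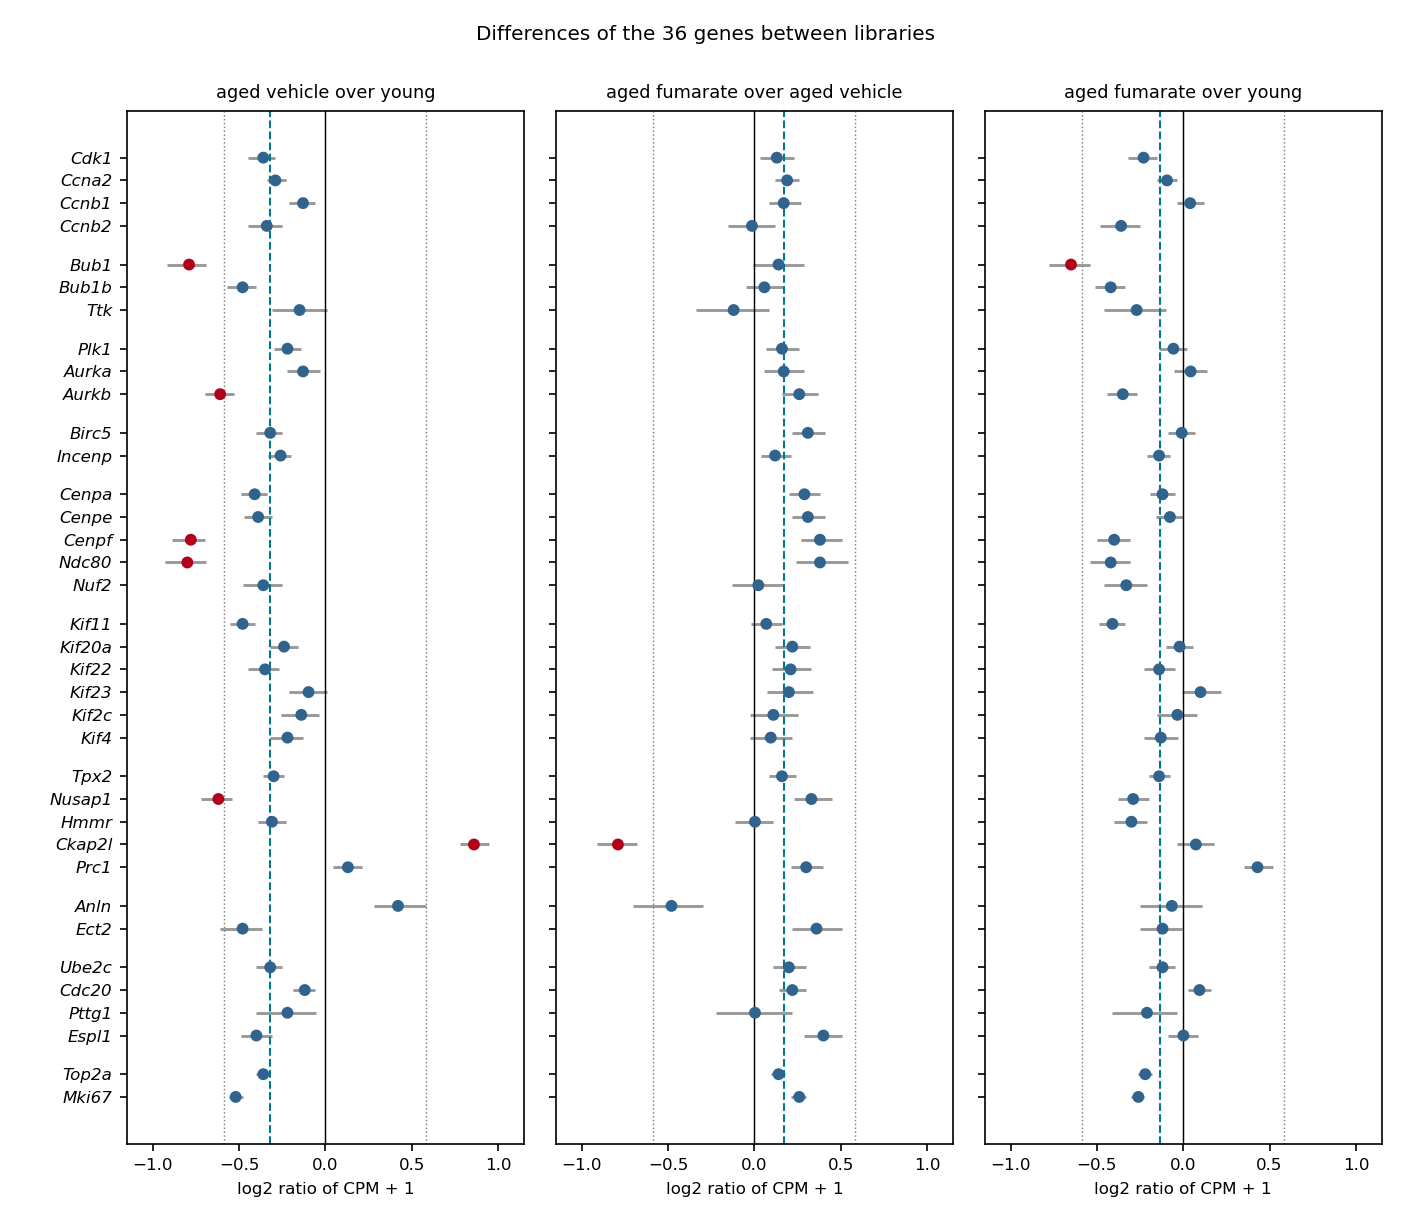
Log2 ratio of CPM + 1 of each member (point) with its 95% counting interval (bar) in the 3 comparisons, the dashed line being the median of the members and the dotted lines the 1.5-fold limit (0.58). Red points lie past the limit. With plain CPM 33 members lie left of 0 for aged vehicle over young and 32 right of 0 for aged fumarate over aged vehicle, and the second median, 0.17 here, is -0.00011 with libraries scaled to T cell identity genes.

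For aged vehicle over young, Aurkb (-0.61) and Nusap1 (-0.62) lay just past the 1.5-fold limit, and Mki67 (-0.52) and Ect2 (-0.48) just short of it. In aged fumarate over aged vehicle the nearest members short of the limit were Anln (-0.48) and Espl1 (0.40), and in aged fumarate over young Prc1 (0.43) and Bub1b (-0.42).

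Compared per kilobase of exon, which allows levels of different genes to be set side by side within a library, Cdc20 was the most abundant member in each library. It had 98.6 CPM per kb in aged fumarate cells, 84.8 CPM per kb in aged vehicle cells and 92.3 CPM per kb in young cells. Top2a and Ccna2 came next in all 3, and Anln was the least abundant, at 2.57 CPM per kb in aged fumarate cells, 3.64 CPM per kb in aged vehicle cells and 2.70 CPM per kb in young cells. Ckap2l shifted most in rank of the 36, to place 8 of 36 in aged vehicle cells, against place 19 in aged fumarate cells and place 20 in young cells.

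The members were set beside genes of S phase, the stage before mitosis. The median log2 ratios of 47 S phase genes were -0.40 for aged vehicle over young, 0.18 for aged fumarate over aged vehicle and -0.24 for aged fumarate over young. The mitosis and cytokinesis medians differed from those values by 0.078, -0.0078 and 0.10, and these differences do not depend on the scaling of the libraries apart from the constant added to CPM. Of the 47 S phase genes, 5 were at least 1.5-fold lower in aged vehicle than in young cells with plain CPM, beside 6.73% of all genes. With libraries scaled to T cell identity genes 1 was, beside 3.62% of all genes. The 5 include Lig1 (DNA ligase I, 206, 161 and 287 CPM in aged fumarate, aged vehicle and young cells) and Pcna (the polymerase clamp, 405, 318 and 518 CPM).

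**Figure D4:**
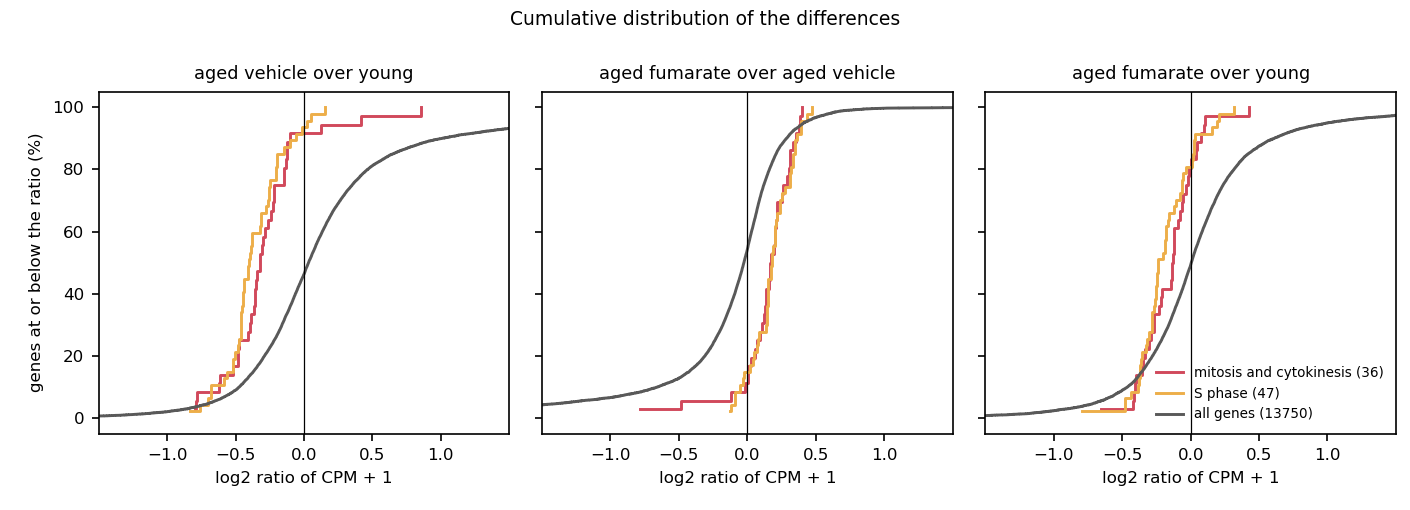
Cumulative share of genes (percent) at or below each log2 ratio of CPM + 1 for the 36 mitosis and cytokinesis genes (red), the 47 S phase genes (orange) and the 13750 genes with a mean of at least 1 CPM (grey). Red and orange curves run close together, left of the grey curve for aged vehicle over young and mostly right of it for aged fumarate over aged vehicle, where the red median is 0.17 with plain CPM and -0.00011 with libraries scaled to T cell identity genes.

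The T cell identity genes had like medians, -0.30 for aged vehicle over young, 0.21 for aged fumarate over aged vehicle and -0.14 for aged fumarate over young. Single genes of that list ran from -0.73 to 0.54 for aged vehicle over young. Its summed level was higher in aged fumarate cells (6208 CPM) than in young cells (5824 CPM), against the sign of its median. A scaling to the list thus depends on how the list is summarized. With libraries scaled to the mean log level of that list, the median of the mitosis and cytokinesis genes was -0.089 for aged vehicle over young, -0.00011 for aged fumarate over aged vehicle and -0.072 for aged fumarate over young. The median of all genes moved by 0.22, -0.16 and 0.057 in these comparisons, and the gap between members and all genes is fixed by construction under any scaling apart from the constant added to CPM. On this scale 9 members changed sign in aged vehicle over young: Ccnb1, Plk1, Aurka, Kif23, Kif2c, Kif4, Cdc20, Ttk and Pttg1. Their ratios then ran from 0.0094 (Kif4) to 0.13 (Kif23). In aged fumarate over aged vehicle 14 changed sign: Cdk1, Bub1, Bub1b, Plk1, Aurka, Top2a, Kif11, Kif2c, Kif4, Tpx2, Incenp, Nuf2, Hmmr and Pttg1. Among these Aurka was then at -0.0018, Plk1 at -0.0087 and Nuf2 at -0.15, so a change of sign can lie within the counting error. In aged fumarate over young 4 changed sign, Plk1, Kif20a, Kif2c and Birc5. None of the 5 members remained at least 1.5-fold lower in aged vehicle than in young cells, beside 3.62% of all genes on that scale. Anln joined Ckap2l as at least 1.5-fold higher, at 0.65 over young, beside 24.3% of all genes. The summed erythroid, platelet, basophil, mast cell, macrophage and monocyte markers were highest in the aged vehicle library, as was the B cell sum. The T cell identity sum was lowest there, and the part of this in the members' values was not tested.

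**Figure D5:**
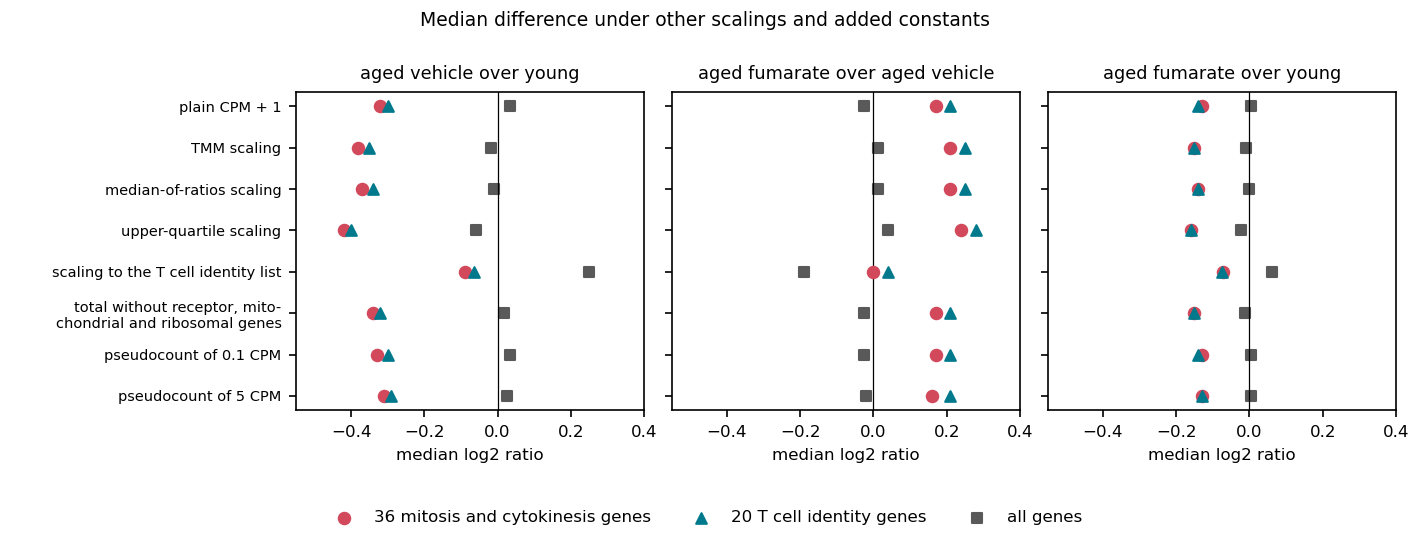
Median log2 ratio of the 36 mitosis and cytokinesis genes (red circles), the 20 T cell identity genes (teal triangles) and all genes with a mean of at least 1 CPM (grey squares) under each scaling of the libraries or constant added to CPM, in the 3 comparisons. Red circles stay beside teal triangles throughout, and for aged fumarate over aged vehicle the red median falls on 0 (-0.00011) with libraries scaled to T cell identity genes.

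Other genes of the division machinery were read from lists that the members do not hold. With plain CPM, 46.2% of all genes were lower in aged vehicle than in young cells. At least 1.5-fold lower were 6.73%, and 16.5% were at least 1.5-fold higher. With libraries scaled to T cell identity genes (the T cell scale), these shares were 3.62% and 24.3%. Of 15 genes of mitotic entry, 12 were lower in aged vehicle than in young cells with plain CPM, and 5 on the T cell scale. Wee1 (0.015), Bora (0.34) and Gtse1 (0.38) were higher with plain CPM, and Gtse1 was at least 1.5-fold higher on the T cell scale. Mastl (Greatwall, the kinase that restrains the phosphatase opposing Cdk1) was at least 1.5-fold lower in both aged libraries than in the young one, at 17.0 CPM in aged fumarate cells, 12.9 CPM in aged vehicle cells and 28.0 CPM in young cells. All 8 condensin genes, whose products compact chromosomes, were lower in aged vehicle than in young cells on both scales, with a median of -0.52 with plain CPM and -0.28 on the T cell scale. Ncaph and Ncapg2 were at least 1.5-fold lower with plain CPM, and no condensin gene was on the T cell scale. All 13 genes of cohesin and its protectors were lower too with plain CPM (median -0.31), and 9 on the T cell scale, with Sgo2a, which shields centromeric cohesin and was at least 1.5-fold lower with plain CPM alone, at 32.2, 25.2 and 39.6 CPM in aged fumarate, aged vehicle and young cells. The medians of aged fumarate over aged vehicle were 0.19 for condensin and 0.18 for cohesin with plain CPM, and 0.018 and 0.011 on the T cell scale.

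Of 28 other checkpoint and kinetochore genes, 24 were lower in aged vehicle than in young cells with plain CPM, beside 46.2% of all genes. On the T cell scale 17 were lower. Hjurp, the chaperone that places Cenpa at centromeres, was at 201 CPM in aged fumarate cells, 179 CPM in aged vehicle cells and 299 CPM in young cells, a ratio of aged vehicle over young of -0.74 (-0.80 to -0.69). Of 23 other passenger, spindle and kinesin genes, all were lower with plain CPM and 14 on the T cell scale. Kntc1 and Ncaph were at least 1.5-fold lower with plain CPM, beside 6.73% of all genes, and neither was on the T cell scale, beside 3.62%. Ncaph stands on this list and on that of condensin, and is counted in both. Melk, a kinase abundant in dividing cells, was at 72.5 CPM in aged fumarate cells, 46.5 CPM in aged vehicle cells and 61.8 CPM in young cells. With plain CPM it alone of the passenger, spindle and kinesin list was at least 1.5-fold higher in aged fumarate than in aged vehicle cells. Of all genes 2.15% were. On the T cell scale no gene of the list was, beside 1.05% of all genes. Of 17 subunits and regulators of the APC/C, none passed the 1.5-fold limit in any comparison with plain CPM. Under upper-quartile scaling 1, Fbxo5, was at least 1.5-fold lower in aged vehicle than in young cells, beside 9.11% of all genes. The medians of the 17 with plain CPM were -0.098 for aged vehicle over young, 0.079 for aged fumarate over aged vehicle and -0.073 for aged fumarate over young. On the T cell scale they were 0.12, -0.091 and -0.012 in these comparisons. Fzr1, the activator of the APC/C after mitosis, was at 96.0, 94.1 and 95.1 CPM in aged fumarate, aged vehicle and young cells. Fbxo5 (Emi1), which inhibits the APC/C before mitosis, was at 42.0, 37.6 and 54.6 CPM in aged fumarate, aged vehicle and young cells. The 17 other cytokinesis genes had medians of 0.11 for aged vehicle over young (0.34 on the T cell scale), 0.082 for aged fumarate over aged vehicle (-0.091 on the T cell scale) and 0.13 for aged fumarate over young (0.19 on the T cell scale). With plain CPM, Arhgef39 was the 1 gene of that list at least 1.5-fold higher in aged vehicle than in young cells, beside 16.5% of all genes. On the T cell scale 4 were, Arhgef39, Myh9, Pdcd6ip and Septin9, beside 24.3% of all genes. Under upper-quartile scaling 0 were, beside 14.5%. Arhgef39 was at 6.71, 7.70 and 4.59 CPM in aged fumarate, aged vehicle and young cells. Cep55, which brings the abscission machinery to the midbody, was the 1 gene at least 1.5-fold lower with plain CPM, beside 6.73% of all genes. It was not past the limit on the T cell scale, and stood at 62.5, 45.1 and 69.4 CPM in aged fumarate, aged vehicle and young cells. Septin9, a cytoskeletal filament protein not limited to dividing cells, was at least 1.5-fold higher in aged fumarate than in young cells, beside 10.5% of all genes. It was at 589, 492 and 373 CPM in aged fumarate, aged vehicle and young cells.

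Of 18 regulators that switch these genes on or off, 12 were lower in aged vehicle than in young cells with plain CPM. Of all genes 46.2% were lower. On the T cell scale 8 of the 18 were lower. Foxm1, which drives transcription late in the cell cycle, was at 66.2 CPM in aged fumarate cells, 60.6 CPM in aged vehicle cells and 74.1 CPM in young cells. Mybl2 (B-Myb), its partner on the CHR, was at 82.9, 74.6 and 72.3 CPM in aged fumarate, aged vehicle and young cells. Neither passed the 1.5-fold limit in any comparison. Rbl2 (p130), the pocket protein of the complex that silences these genes in quiescence, was at 126 CPM in aged fumarate cells, 120 CPM in aged vehicle cells and 45.4 CPM in young cells, with ratios of 1.45 for aged fumarate over young and 1.39 for aged vehicle over young. Rbl2 and the repressors E2f7 and E2f8 were the 3 of 18 at least 1.5-fold higher in aged vehicle than in young cells, a share near the 16.5% of all genes. The activator E2f2 was the 1 of 18 at least 1.5-fold lower, beside 6.73% of all genes. On the T cell scale 0 of 18 were, beside 3.62%. E2f8 was at 44.0 CPM in aged fumarate cells, 74.8 CPM in aged vehicle cells and 40.5 CPM in young cells, an order of levels shared with Ckap2l. It was the 1 of 18 at least 1.5-fold lower in aged fumarate than in aged vehicle cells (-0.75, -0.91 to -0.62), beside 11.2% of all genes.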

How the data were processed

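RNA of activated spleen T cells was sequenced, and each library began from 500 ng of total RNA, per the labels' protocols. The tools named in the submitters' processing notes are STAR and Partek, with mm10 as the build. Their versions and roles, the annotation release and the strand setting are not stated in the sources used here. Although its name calls it raw counts, the table the authors deposited holds CPM, since each of its 3 columns sums to 1000000. The smallest spacing between low values is what 1 read is worth, and depth was estimated from it. Only 58.5% to 68.2% of genes lay within 0.02 reads of a whole number, so no count model was fitted. Where a gene is at 0, up to 3 reads may have been missed, equal to 0.217 CPM in the aged fumarate library, 0.174 CPM in the aged vehicle library and 0.0732 CPM in the young library.

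Ratios are log2 of CPM + 1, and a gene counts as higher or lower past 1.5-fold. Intervals are exact (Clopper-Pearson, 95%) for the plain CPM ratio on estimated reads, which are not independent molecules. Scripts were tested on simulated data and ran on matplotlib 3.10.9, scipy 1.17.1, pandas 2.3.3, numpy 2.4.6 and Python 3.11.15. All 36 members were named. Of other lists, up to 3 genes with the largest ratios in each comparison could be named, with Foxm1, Mybl2, Fzr1 and Fbxo5 always, and the text gives some of these. The members and lists were chosen with earlier results of these data known. Alternatives were other scalings, added constants, a 2-fold limit and a minimum of 10 CPM. Gene ends were moved back by 1 base, after which all 36 members matched GENCODE M21, whose exons gave lengths. Promoters are from RefSeq. Cma1, Tpsb2, C1qa, Klra4 and Ncr1, on the marker lists, were not analysed here.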

Additional observations from a re-analysis of the deposited data

How the results depend on the processing

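No paired analysis was possible because each group has 1 library, and for the same reason no library could be left out. Under TMM, median-of-ratios and upper-quartile scaling, a total that leaves out receptor segments and the mitochondrial and ribosomal genes, and added constants of 0.1 or 5 CPM, the medians kept their sign, and upper-quartile scaling moved that of aged vehicle over young to -0.42. With libraries scaled to T cell identity genes, the medians were -0.089 for aged vehicle over young and -0.00011 for aged fumarate over aged vehicle. The second was in effect 0, with 18 members below 0 and 18 above, where plain CPM gave 0.17. On that scale 2 members were at least 1.5-fold higher and 0 lower in aged vehicle than in young cells, and 2 lower in aged fumarate than in aged vehicle cells. With a 2-fold limit the counts were 0 higher and 0 lower for aged vehicle over young, 0 lower for aged fumarate over aged vehicle and 0 lower for aged fumarate over young. Over genes with a mean of at least 10 CPM, 1.43% were at least 1.5-fold higher and 6.57% lower in aged fumarate than in aged vehicle cells. The causes of these shifts were not tested. Of 108 member ratios, 72 moved beyond their counting error under the T cell scaling, 28 under upper-quartile, 3 under TMM and 2 under median-of-ratios scaling. Without members off whole reads, or without members that overlap another gene, both chosen after seeing the data, the medians were -0.35, 0.16 and -0.14. Depth limits Ttk, Pttg1 and Anln most, the members with the fewest reads.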

Other observations

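A check of the members' reads found 8 of the 36 more than 0.05 reads away from a whole number in an aged library (Ccna2, Ccnb1, Plk1, Top2a, Kif20a, Kif4, Nusap1 and Prc1). Of these 8, 6 were among the 7 members whose span overlaps another gene of the table. The seventh, Cdc20, overlaps the lipid elongase gene Elovl1, which was at 137 CPM in aged fumarate cells, 154 CPM in aged vehicle cells and 99.7 CPM in young cells. Mki67 has a neighbour on the opposite strand within 3.5 kb, Ptpre, a receptor-type phosphatase, at 7.80 CPM in aged fumarate cells, 19.0 CPM in aged vehicle cells and 3.37 CPM in young cells, with aged vehicle highest where Mki67 was lowest.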
